A study of Mus musculus with 21 samples.

Results

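MHC class II antigen presentation was followed through 7 genes, found by their symbols among the 24498 genes of the deposited count table: H2-Aa, H2-Ab1, H2-Eb1, Cd74, Ciita, H2-DMa and H2-DMb1. All 7 were present, and each is described in those 15 libraries from ethanol-treated mice that held over 1000000 gene reads. The RNA came from hippocampus of male mice of 8 weeks, and the study asked how ethanol and the enzyme ACSS2, which makes acetyl-CoA from acetate, act on gene expression there. In the knockdown arm the mice carried an AAV2/9 vector with a short hairpin RNA against Acss2 behind a U6 promoter and EGFP behind a CMV promoter; no vector is described for the control arm in the labels used here. After ethanol, injected into the peritoneum at 2 g per kg as a 20% solution, the deep libraries were 4 dorsal knockdown (replicates 1 to 4), 3 dorsal control (1 to 3), 3 ventral knockdown (2 to 4), 4 ventral control (1 to 4) and 1 knockdown library of total hippocampus. The sample protocol places the vector in the dorsal hippocampus, so the ventral tissue lay outside the injection site, whereas the wording of the series text could also mean that it was given systemically. Neither source says whether replicates came from separate animals, so every p-value measures only the spread between these libraries.

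Class II molecules are heterodimers of an alpha and a beta chain that show peptides from endosomes to CD4+ T cells. Newly made heterodimers bind the invariant chain, which fills the peptide groove and guides them to endosomes, where cathepsins cut it down and the H2-DM heterodimer swaps its last fragment for peptide. The transactivator CIITA switches on the whole set through factors bound at the X and Y boxes of their promoters, and interferon gamma is its best known inducer. In brain, microglia carry little class II at rest, while macrophages and dendritic cells at the brain's borders carry more. In bulk tissue, more cells of a type and more RNA per cell cannot be told apart.

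The promoters are shown because the X and Y boxes are where the transactivator acts on the chain and H2-DM genes alike. RefSeq windows of 250 bases before to 50 bases after the start (GRCm38.p6, the same assembly as mm10) were at hand for 4 of the 7 genes, and the 150 bases just before the start are printed, with capitals for the matched X box letters GNAAC and, 24 to 30 bases further on, the Y box letters TGATTGG. H2-Aa is on the minus strand (chr17:34287824-34287973), and the others on the plus strand, H2-Eb1 at chr17:34305717-34305866, H2-DMb1 at chr17:34153041-34153190 and the more upstream of the H2-DMa windows at chr17:34122682-34122831. The RefSeq start is also the GENCODE start for H2-Aa and H2-Eb1 and lies 119 bases inside the GENCODE gene for H2-DMb1. For H2-DMa the starts of both RefSeq windows lie 3291 and 5977 bases inside the GENCODE gene, whose own start at 34119541 is in neither window.
H2-Aa: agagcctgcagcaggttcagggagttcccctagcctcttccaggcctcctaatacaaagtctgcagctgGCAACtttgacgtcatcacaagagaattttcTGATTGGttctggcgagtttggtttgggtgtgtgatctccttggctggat
H2-Eb1: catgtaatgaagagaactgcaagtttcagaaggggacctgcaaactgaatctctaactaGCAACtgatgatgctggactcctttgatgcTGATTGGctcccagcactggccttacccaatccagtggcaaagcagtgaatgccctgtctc
H2-DMb1: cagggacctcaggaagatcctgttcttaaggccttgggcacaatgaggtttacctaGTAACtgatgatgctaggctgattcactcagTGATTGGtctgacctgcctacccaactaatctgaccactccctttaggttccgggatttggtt
H2-DMa: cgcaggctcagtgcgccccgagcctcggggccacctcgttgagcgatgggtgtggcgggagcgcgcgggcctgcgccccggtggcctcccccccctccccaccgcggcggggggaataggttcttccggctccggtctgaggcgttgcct
The pair began 81 bases before the start in H2-Aa, at -81 for the X box letters and -50 for the Y box, with 26 bases between them. It began at -91 and -61 in H2-Eb1 (25 bases between) and at -94 and -63 in H2-DMb1 (26 between). Neither of the H2-DMa windows held these letters on either strand, and the sequence at its GENCODE start was not examined. Of 32851 windows of this length in the table, 78 held the pair on either strand (0.237%) and 2568 held the Y box letters (7.82%). The motif letters were chosen with these sequences in view, so the matches are a description.

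Of the 7 genes, 5 lie within 197 kb of the MHC on chromosome 17 (mm10). These are H2-DMa (34119541 to 34139101, plus strand), H2-DMb1 (34153072 to 34160230, plus), H2-Ab1 (34257689 to 34269419, plus), H2-Aa (34282744 to 34287823, minus) and H2-Eb1 (34305867 to 34316674, plus). Ciita is on chromosome 16 (10480059 to 10528418, plus) and Cd74 on chromosome 18 (60803848 to 60812652, plus). All 7 are annotated as protein coding. H2-DMa shares 360 exon bases with Brd2 and Ciita shares 329 with Dexi, each on the opposite strand. Whether the counting used strand is not stated in those sources. The counts of H2-DMa and Ciita may therefore include some of the partner's reads or lack some of their own. H2-DMb1 has a near copy, H2-DMb2, between which reads could be split or lost.

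The deep libraries held 2819837 to 13240179 gene reads, and the 7 genes together took 45 to 1289 of them. Levels are CPM, gene counts per 1000000 gene reads after scaling by TMM factors, and comparisons used the quasi-likelihood F-test of edgeR on all 14578 genes that passed a low-count filter, in the 14 dorsal and ventral libraries, with Benjamini-Hochberg adjustment. Of the 7 genes 6 passed the filter and Ciita did not. Acss2 stood at 44.2, 40.8, 18.0 and 19.2 CPM in dorsal knockdown 1 to 4, against 52.9, 58.6 and 52.7 CPM in dorsal control 1 to 3. It stood at 28.8, 63.5 and 36.6 CPM in ventral knockdown 2 to 4, against 50.2, 54.1, 47.4 and 48.0 CPM in ventral control 1 to 4, and at 58.0 CPM in the total library. Each dorsal knockdown library lay below each dorsal control, as for 3.25% of tested genes, while ventral knockdown 3 and the total library were above or within the control range. The log2 fold change, knockdown over control, was -0.84 (SE 0.32) in dorsal tissue, with an edgeR adjusted p of 0.964. In ventral tissue it was -0.21 (SE 0.32), with an adjusted p of 1.00. Neuronal transcripts of the hippocampus were present in all 15 libraries, with the pyramidal neuron gene Neurod6 at 70.7 to 315 CPM and the granule neuron gene Prox1 at 11.2 to 179 CPM.

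The classical chains, the invariant chain and H2-DMb1 went up and down together from library to library, whereas H2-DMa varied little. Dorsal knockdown 3 held the most RNA of 6 of the 7 genes, the exception being H2-DMa. Per kilobase of exon, the median level over the 15 libraries ran in the order Cd74 (3.88 CPM per kb), H2-DMa (3.29), H2-Eb1 (1.26), H2-Ab1 (0.873), H2-Aa (0.682), H2-DMb1 (0.587) and Ciita (0.0203). The highest Cd74 level was 112.6-fold the lowest, which rests on 5 reads in ventral knockdown 3. For H2-DMa this ratio was 2.29-fold, so the order of these genes changes between libraries.

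**Figure D1:**
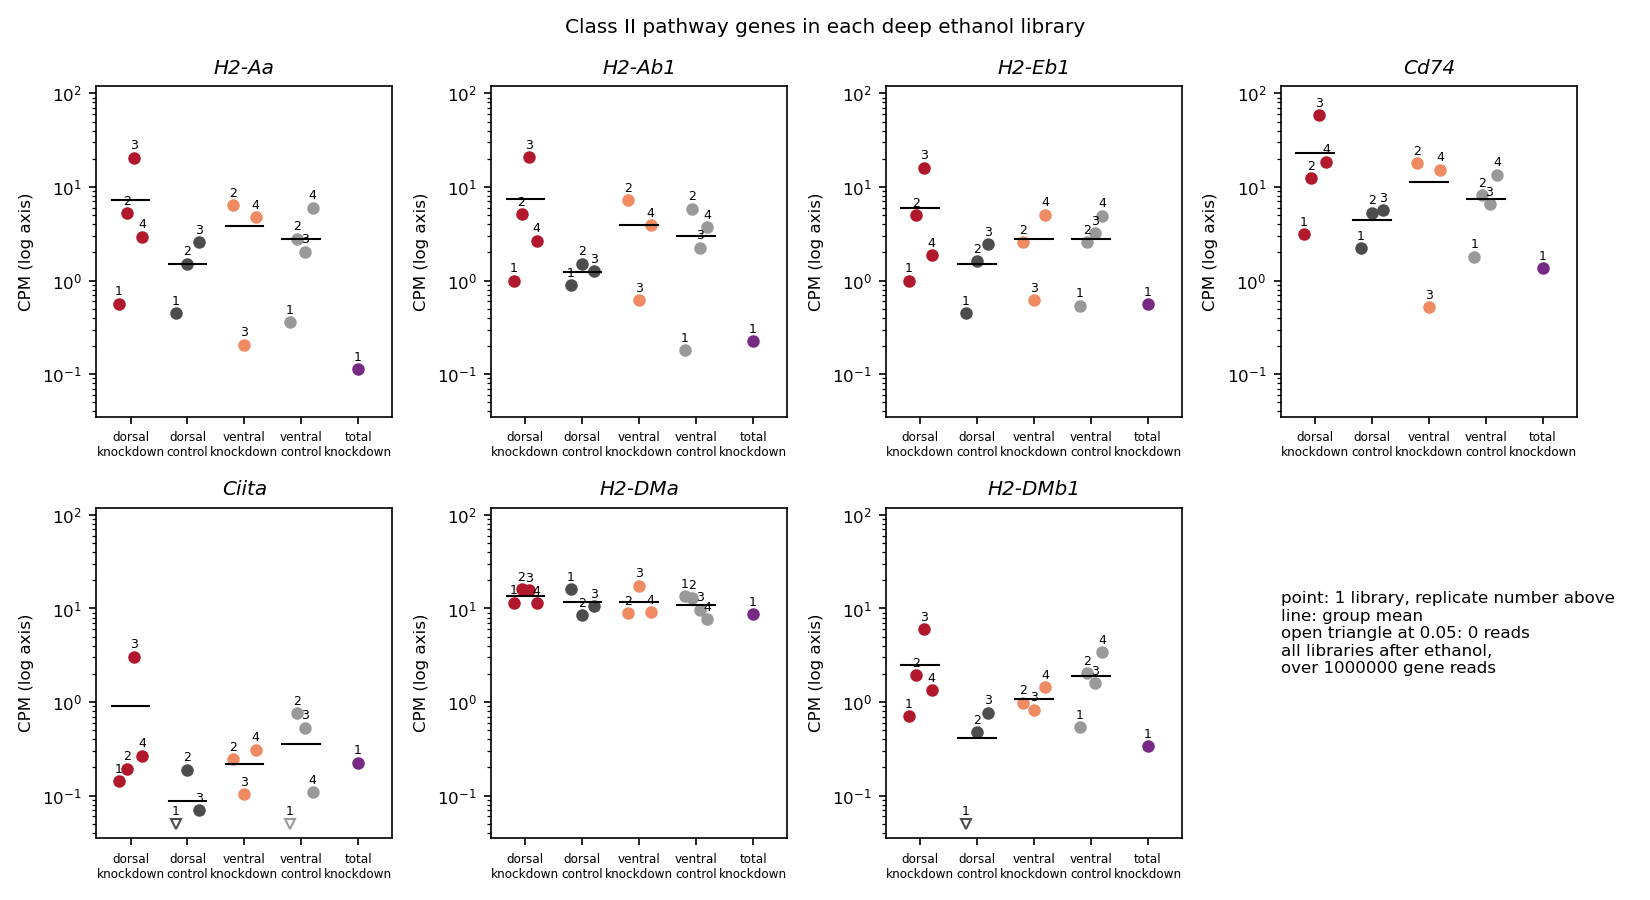
Level in CPM (log axis) of each of the 7 genes in the 15 deep ethanol libraries, by region and vector arm; points are libraries with their replicate number, lines are group means, and open triangles mark 0 reads. Dorsal knockdown 3 is the top point in 6 panels, while the H2-DMa points all lie between 7.68 and 17.6 CPM.

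Cd74 encodes the invariant chain. It stood at 3.12, 12.5, 58.3 and 18.6 CPM in dorsal knockdown 1 to 4, against 2.22, 5.33 and 5.67 CPM in dorsal control 1 to 3. It stood at 18.0, 0.518 and 15.3 CPM in ventral knockdown 2 to 4, against 1.80, 8.17, 6.51 and 13.5 CPM in ventral control 1 to 4, and at 1.35 CPM in the total library. Dorsal knockdown 2, 3 and 4 lay above every dorsal control and dorsal knockdown 1 lay among them. In ventral tissue the knockdown group held both the highest value of the region and, in replicate 3, the lowest of all 15 libraries.

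H2-Aa, the alpha chain of the I-A molecule, followed the same libraries. It stood at 0.568, 5.23, 20.6 and 2.94 CPM in dorsal knockdown 1 to 4, against 0.445, 1.52 and 2.59 CPM in dorsal control 1 to 3. It stood at 6.41, 0.207 and 4.77 CPM in ventral knockdown 2 to 4, against 0.361, 2.81, 2.03 and 6.03 CPM in ventral control 1 to 4, and at 0.113 CPM, 1 read, in the total library. The dorsal groups overlapped only through knockdown 1.

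H2-Ab1, the beta chain that pairs with it, stood at 0.994, 5.13, 20.7 and 2.67 CPM in dorsal knockdown 1 to 4, against 0.890, 1.52 and 1.26 CPM in dorsal control 1 to 3. It stood at 7.27, 0.621 and 3.94 CPM in ventral knockdown 2 to 4, against 0.180, 5.87, 2.24 and 3.73 CPM in ventral control 1 to 4, and at 0.226 CPM in the total library. As for H2-Aa, dorsal knockdown 2 to 4 lay above the dorsal controls and knockdown 1 did not. In ventral tissue the arms overlapped.

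H2-Eb1 is the beta chain of the I-E molecule. It stood at 0.994, 5.04, 16.1 and 1.87 CPM in dorsal knockdown 1 to 4, against 0.445, 1.62 and 2.45 CPM in dorsal control 1 to 3. It stood at 2.59, 0.621 and 5.08 CPM in ventral knockdown 2 to 4, against 0.541, 2.55, 3.20 and 4.94 CPM in ventral control 1 to 4, and at 0.564 CPM in the total library. Here dorsal knockdown 4 also lay within the control range, so that 2 of 4 knockdown libraries were above all dorsal controls. The alpha chain partner of I-E, listed as H2-Ea-ps, had 0 reads in all 15 libraries, which allows up to 0.0241 CPM over the 124473211 gene reads. Its name marks it as a pseudogene of the reference strain.

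Ciita, the transactivator, was near the limit of detection, with 53 reads over the 15 libraries. It stood at 0.142, 0.194, 3.05 and 0.267 CPM in dorsal knockdown 1 to 4, against 0, 0.190 and 0.0700 CPM in dorsal control 1 to 3. It stood at 0.247, 0.104 and 0.311 CPM in ventral knockdown 2 to 4, against 0, 0.766, 0.534 and 0.110 CPM in ventral control 1 to 4, and at 0.226 CPM in the total library. Dorsal knockdown 3 alone gave 28 of the 53 reads, and the other libraries had 0 to 5 each. Exact two-sided permutation p was 0.486 for dorsal knockdown against control and 0.6 for ventral, where 0.0286 is the smallest these group sizes allow (4 tests, adjusted p = 0.8 for each).

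The H2-DM chains, which load peptide, parted from each other. H2-DMa, the alpha chain, stood at 11.5, 16.2, 15.7 and 11.4 CPM in dorsal knockdown 1 to 4, against 16, 8.47 and 10.6 CPM in dorsal control 1 to 3. It stood at 8.87, 17.6 and 9.12 CPM in ventral knockdown 2 to 4, against 13.5, 13, 9.72 and 7.68 CPM in ventral control 1 to 4, and at 8.69 CPM in the total library. Its highest value was in ventral knockdown 3, where Cd74 was lowest, and all groups overlapped. Brd2, the gene that shares exon bases with it, had a dorsal log2 fold change of 0.02 (SE 0.23), and whether Brd2 reads enter the H2-DMa count was not tested.

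H2-DMb1, the beta chain, followed the classical chains instead. It stood at 0.71, 1.94, 5.99 and 1.34 CPM in dorsal knockdown 1 to 4, against 0, 0.476 and 0.770 CPM in dorsal control 1 to 3. It stood at 0.986, 0.828 and 1.45 CPM in ventral knockdown 2 to 4, against 0.541, 2.04, 1.60 and 3.40 CPM in ventral control 1 to 4, and at 0.338 CPM in the total library. In dorsal tissue 3 of 4 knockdown libraries were above all controls, while in ventral tissue none was. Its near copy H2-DMb2 stayed between 0.0951 and 0.545 CPM.

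Across the 15 libraries, log2 CPM of Cd74 had a Pearson r of 0.96 with H2-Aa, 0.90 with H2-Ab1, 0.89 with H2-Eb1, 0.70 with H2-DMb1, 0.65 with Ciita and -0.20 with H2-DMa. Spearman rho was 0.95, 0.90, 0.82, 0.74, 0.66 and -0.20 in the same order. Without ventral knockdown 3 and dorsal knockdown 3, the libraries farthest from the Cd74 median, r with the 3 classical chains was 0.86 to 0.96, and with Ciita it was 0.47. These values describe genes counted in the same libraries, of which most have few reads of the less abundant chains.

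The share of the invariant chain in the set was between 42.1% and 62.5% in 13 of the 15 libraries. Of the reads of Cd74, H2-Aa, H2-Ab1 and H2-Eb1 together, Cd74 took 55.0%, 44.8%, 50.4% and 71.3% in dorsal knockdown 1 to 4, against 55.6%, 53.3% and 47.4% in dorsal control 1 to 3. It took 52.5%, 26.3% and 52.7% in ventral knockdown 2 to 4, against 62.5%, 42.1%, 46.6% and 47.9% in ventral control 1 to 4, and 60.0% in the total library. Dorsal knockdown 4 had the highest share, with an exact (Clopper-Pearson) 95% interval of 64.4% to 77.5% on 195 reads. In dorsal knockdown 3 it was 47.3% to 53.4% on 1062 reads. The interval of dorsal knockdown 4 overlapped those of dorsal knockdown 1, dorsal control 1, ventral control 1 and the total library, which had 9 to 40 reads. The low share of ventral knockdown 3 rests on 19 reads (9.15% to 51.2%). Intervals and limits from 0 reads cover counting error only.

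**Figure D2:**
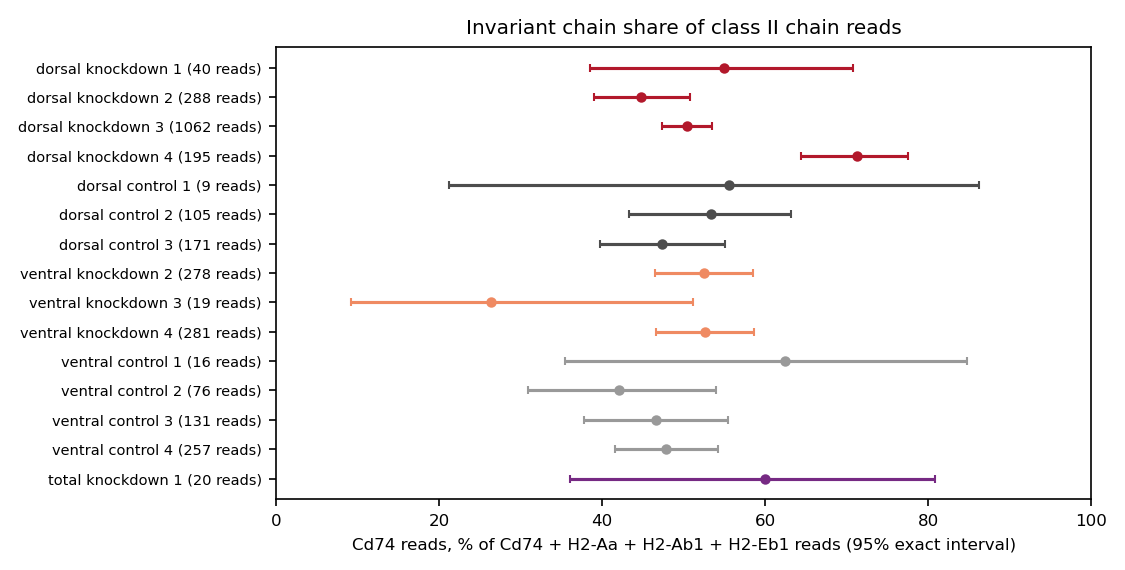
Cd74 reads as a percentage of the reads of Cd74, H2-Aa, H2-Ab1 and H2-Eb1 in each library, with exact 95% intervals and the number of reads in brackets. Dorsal knockdown 4, at 71.3%, is the library whose interval lies above that of dorsal knockdown 3.

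In dorsal hippocampus all 6 tested genes had a log2 fold change above 0 in knockdown, as did 53.3% of all tested genes, and none passed adjustment. Cd74 averaged 23.1 ± 24.3 CPM in knockdown and 4.41 ± 1.90 CPM in control (SD, n = 4 and 3), a difference of 2.30 on the log2 scale (SE 1.00), with an edgeR adjusted p of 0.999. H2-Ab1 averaged 7.37 ± 9.05 against 1.22 ± 0.318 CPM (2.51, SE 1.07, edgeR adjusted p = 0.999) and H2-DMb1 2.49 ± 2.39 against 0.415 ± 0.389 CPM (2.21, SE 0.80, edgeR adjusted p = 0.955). The SD of the knockdown group was above its mean for Cd74 and H2-Ab1 and just below it for H2-DMb1. H2-Aa (2.09, SE 1.11), H2-Eb1 (1.82, SE 0.93) and H2-DMa (0.26, SE 0.32) stayed above 0.05 before adjustment too, with an adjusted p of 0.999 each by edgeR.

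The median log2 fold change of the 6 genes was 2.15, against 0.03 over all 14578 tested genes. An unadjusted p under 0.05 with a higher level in knockdown was reached by 3 of the 6 (Cd74, H2-Ab1 and H2-DMb1), against 3.39% of all tested genes, and with a lower level by 0 of 6, against 1.19%. Over all genes edgeR called 0 here. Before adjustment 667 genes (4.58%) were under 0.05, and the count from DESeq2 was 11. None of the 7 genes had groups that did not overlap, a pattern with knockdown above control that 3.77% of tested genes showed. Without dorsal knockdown 3 the median was 0.99, the 6 fold changes ran from 0.19 to 1.32, and 0 of 6 reached p under 0.05. The count of 3 was 1 without dorsal control 1, 2 or 3 and 5 without dorsal knockdown 1.

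In ventral hippocampus none of the 6 tested genes differed between the arms beyond the spread of the libraries. Cd74 averaged 11.3 ± 9.42 CPM in knockdown and 7.49 ± 4.82 CPM in control (SD, n = 3 and 4), or 0.57 on the log2 scale (SE 0.92, edgeR adjusted p = 1.00). H2-DMb1 ran the other way, at 1.09 ± 0.324 against 1.90 ± 1.18 CPM (-0.81, SE 0.73, edgeR adjusted p = 1.00). The 6 genes had a median of 0.26, 4 were above 0 (48.2% of all tested genes), and 0 reached an unadjusted p under 0.05 in either direction, against 1.61% of tested genes higher and 2.46% lower. Over all genes edgeR called 0, against 35 by DESeq2, and 593 (4.07%) were under 0.05 before adjustment. None of the 7 genes had arms that did not overlap, where 1.05% of tested genes did with knockdown higher and 1.63% with knockdown lower. H2-Aa, H2-Ab1, H2-Eb1 and H2-DMa changed sign when single libraries were left out, for example to -0.20 for H2-Aa without ventral knockdown 2.

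Between regions of the knockdown arm, the 6 genes had a median log2 fold change, dorsal over ventral, of 1.00, all 6 were above 0 (47.9% of all tested genes), and 0 reached an unadjusted p under 0.05 (1.28% of tested genes did so with dorsal higher and 0.892% with dorsal lower). The median was -0.01 without dorsal knockdown 3, when H2-Aa, H2-Ab1 and H2-Eb1 stood at -0.35, -0.40 and -0.04. Neither edgeR nor DESeq2 called a gene here, and 317 (2.17%) were under 0.05 in edgeR before adjustment. The regions overlapped for all 7 genes, where 1.03% of tested genes were separate with dorsal higher and 0.713% with dorsal lower. In the control arm 1 of 6 genes was above 0, against 43.6% of all tested genes, and the median was -0.74. H2-DMb1 averaged 0.415 ± 0.389 CPM in dorsal and 1.90 ± 1.18 CPM in ventral control (SD, n = 3 and 4), a log2 difference of -1.83 (SE 0.81) with an edgeR adjusted p of 0.731. It was the 1 gene of 6 at an unadjusted p under 0.05, which 2.99% of tested genes reached with dorsal lower and 2.59% with dorsal higher. It was above 0.05 without dorsal control 1 (-1.59), dorsal control 2 (-1.76), ventral control 2 (-1.81) or ventral control 4 (-1.35). In controls edgeR called 0 and DESeq2 13 of all genes, and 813 (5.58%) were under 0.05 before adjustment. All 7 genes overlapped between the regions, where 5.54% of tested genes were separate with dorsal higher and 3.73% with dorsal lower.

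The difference between the knockdown effects, dorsal minus ventral, was above 0 in all 6 tested genes (54.9% of all tested genes), with a median of 1.80 on the log2 scale and of 0.71 without dorsal knockdown 3. For H2-DMb1 it was 3.03 (SE 1.08, edgeR adjusted p = 0.998), and 2.13 without that library. H2-DMb1 was the 1 of 6 at an unadjusted p under 0.05, against 2.79% of tested genes with a positive difference and 1.82% with a negative one. For Cd74 the difference was 1.73 (SE 1.34) and for H2-DMa 0.14 (SE 0.45). The count over all genes was 0 in edgeR and 9 in DESeq2, and 672 genes (4.61%) were under 0.05 before adjustment.

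**Figure D3:**
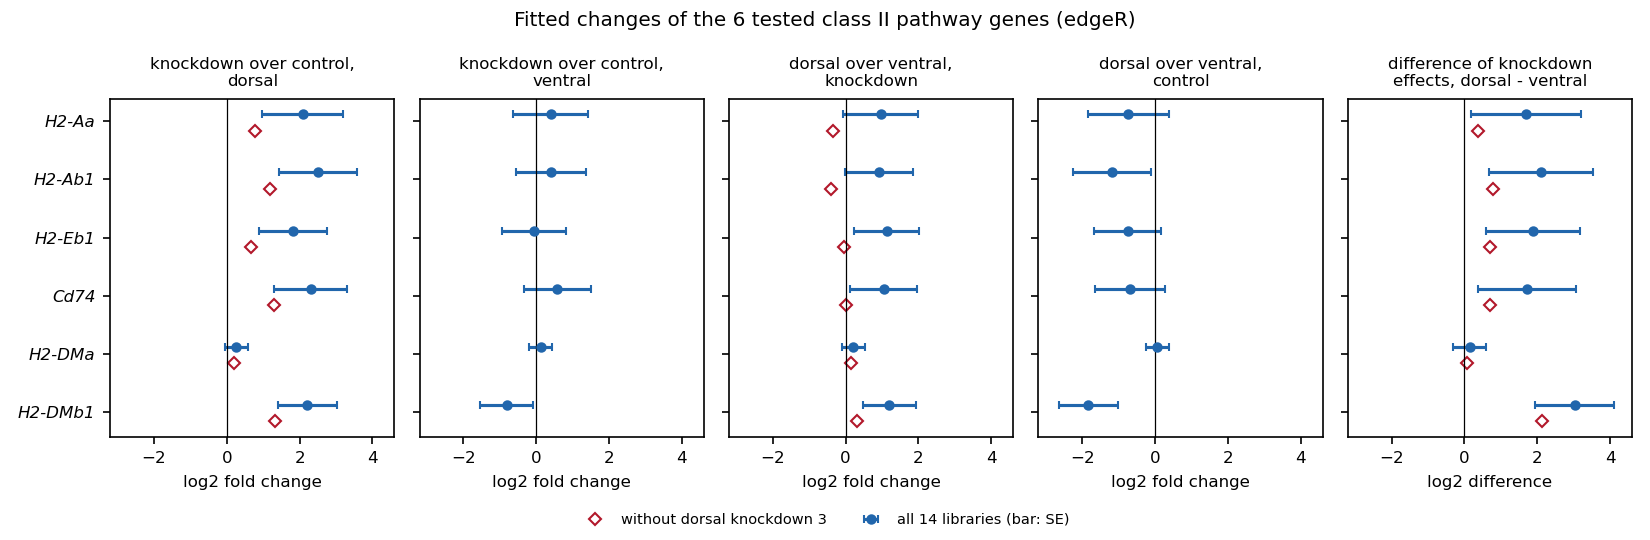
Log2 fold changes of the 6 tested genes in 5 comparisons, each with its standard error (filled points), and the same without dorsal knockdown 3 (open diamonds) where that library enters the comparison. The dorsal knockdown values of the chains lie between 1.82 and 2.51 and move to between 0.66 and 1.29 for H2-Aa, H2-Ab1, H2-Eb1 and Cd74 without that library.

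Within the knockdown arm the level of Cd74 ran opposite to that of Acss2. From the lowest to the highest Acss2 level (18.0, 19.2, 28.8, 36.6, 40.8, 44.2, 58.0 and 63.5 CPM), the 8 knockdown libraries held 58.3, 18.6, 18.0, 15.3, 12.5, 3.12, 1.35 and 0.518 CPM of Cd74. The order is unbroken and runs across dorsal, ventral and total tissue (Spearman rho -1, Pearson r -0.90 on log2 CPM, and -0.94 without dorsal knockdown 3 and 4, the libraries farthest from the Acss2 median, n = 8). Of the 14577 tested genes other than Acss2, 8 had this rho (0.0549%), Cd74 among them, and 176 had a rho of -0.9 or below (1.21%).

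Spearman rho with Acss2 in these 8 libraries was -0.81 for H2-Aa and H2-Ab1, -0.76 for H2-Eb1, -0.71 for H2-DMb1, -0.86 for Ciita and 0.14 for H2-DMa. In the 7 control libraries, where Acss2 spanned only 47.4 to 58.6 CPM, rho was -0.25 for Cd74, -0.14 for H2-Aa, 0 for H2-Ab1, -0.50 for H2-Eb1, -0.46 for H2-DMb1, 0.11 for Ciita and 0.21 for H2-DMa. The pattern was noticed after the values were seen and is given without a test. Summed levels of other groups moved with Acss2 in the same libraries, with a rho of -0.88 for 9 class I presentation genes, -0.76 for 9 microglia genes and -0.76 for 6 reactive astrocyte genes, and of 0.45 for 6 hippocampal neuron genes. Their part in the relation was not tested.

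**Figure D4:**
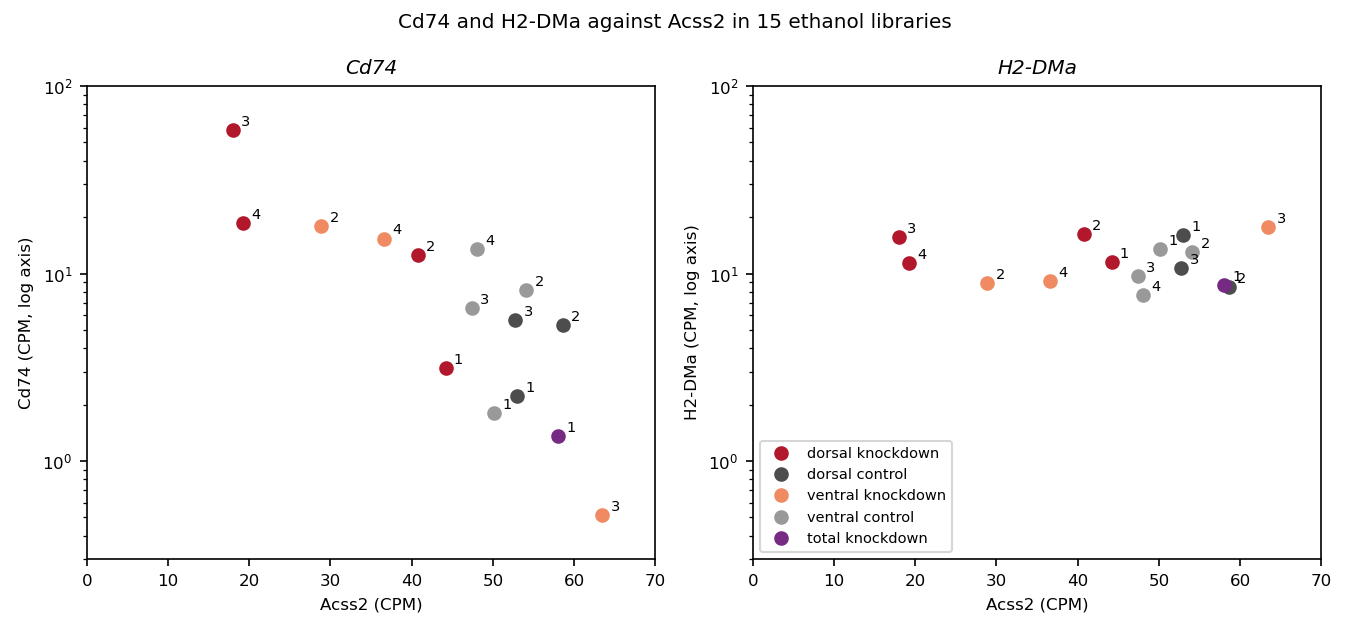
Cd74 (left) and H2-DMa (right) against Acss2 in the 15 libraries, in CPM with a log vertical axis; numbers are replicates. The 8 knockdown libraries run from 58.3 CPM of Cd74 at 18.0 CPM of Acss2 to 0.518 at 63.5, the 7 controls sit between 47.4 and 58.6 CPM of Acss2, and H2-DMa shows no such slope.

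The rest of the pathway was read from lists of genes by role. The factors that bind the X and Y boxes had small differences between dorsal knockdown and control, with log2 fold changes of -0.01 for Rfx5, -0.14 for Rfxap, -0.20 for Rfxank, and -0.19, -0.08 and 0.07 for the Y box factors Nfya, Nfyb and Nfyc. Of the 10 regulators 4 were above 0 (53.3% of all tested genes), and 3 were higher at an unadjusted p under 0.05 (3.39% of all tested genes). Among these 3 were the interferon regulatory factors Irf1 (1.15, SE 0.43, edgeR adjusted p = 0.955) and Irf8 (1.39, SE 0.60). The median of the 10 was -0.04, and without dorsal knockdown 3 it was -0.06 with 0 at p under 0.05 (1.54% of all tested genes higher).

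Genes of endosomal processing had a median of 0.51 in dorsal knockdown over control, with 8 of 10 above 0 (53.3% of all tested genes). Against 3.39% of all tested genes, 4 of the 10 were higher at an unadjusted p under 0.05. These were Ctss, the cathepsin that trims the invariant chain (1.81, SE 0.52, edgeR adjusted p = 0.955), the cathepsins Ctsh (1.27, SE 0.47) and Ctsd (0.89, SE 0.34), and Ifi30, a lysosomal thiol reductase (1.52, SE 0.62). Without dorsal knockdown 3 the median was 0.32 and 1 of the 10 was higher at p under 0.05, against 1.54% of all tested genes. March1, a ubiquitin ligase that removes class II from the cell surface, was at 30.5 CPM in dorsal knockdown 3, with a median of 36.4 CPM over the 15 libraries. It was nearly as low in ventral control 4 (30.6 CPM) and in ventral knockdown 3 (31.3 CPM), the library with the least Cd74. Its dorsal fold change was -0.18 (SE 0.25).

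Of the other class II loci, H2-Ob, the beta chain of the H2-DM inhibitor H2-O, was the 1 of 5 that passed the filter (1.78, SE 0.68, edgeR adjusted p = 0.955). It had 10 reads or more in 3 of the 15 libraries, and dorsal knockdown gave 39 of its 83 reads. Its passing therefore leaned on the group where it was high. H2-Eb2 had 1 read in all. Of the costimulation genes 3 of 5 passed the filter. All 3 were above 0 (53.3% of all tested genes) and at an unadjusted p under 0.05 (3.39% of all tested genes higher). They were the ligand Cd86 (1.48, SE 0.54), the adhesion molecule Icam1 (1.50, SE 0.65) and the inhibitory ligand Cd274 (1.79, SE 0.80). Without dorsal knockdown 3, 1 of the 3 was under 0.05, against 1.54% of all tested genes higher.

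Class I presentation genes, which show peptides to CD8+ T cells, were above 0 in 9 of 9 cases in dorsal knockdown (53.3% of all tested genes), with a median of 2.25. Of the 9, 7 were higher at an unadjusted p under 0.05, against 3.39% of all tested genes. H2-D1, a class I heavy chain, had a log2 fold change of 2.32 (SE 0.65) and Psmb8, an immunoproteasome subunit, of 2.72 (SE 0.82; edgeR adjusted p = 0.955 for each). Without dorsal knockdown 3 the class I median was 1.54 and 5 of 9 were at p under 0.05, against 1.54% of all tested genes. The class II genes then had 0 of 6 at p under 0.05, with a median of 0.99 and fold changes of 0.19 to 1.32. Whether class I and class II genes differed in this was not tested. Interferon gamma signalling genes were above 0 in 8 of 9 tested cases (53.3% of all tested genes), with a median of 1.15. Of them 5 were higher at p under 0.05, against 3.39% of all tested genes. Without dorsal knockdown 3 their median was 0.49 and 0 were at p under 0.05, against 1.54% of all tested genes higher. Cxcl9, a tested gene of this list, had 0 reads in dorsal control, and dorsal knockdown gave 93 of its 121 reads. Cxcl9 thus passed the filter mainly on reads from the group where it was high. Ifng itself had 3 reads in the 15 libraries.

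The interferon-induced chemokine Cxcl10 was also high in ventral control 2, with less class II RNA. Dorsal knockdown 3 held 102 CPM of Cxcl10, against 113 CPM in ventral control 2. Cd74 was 58.3 CPM in dorsal knockdown 3 and 8.17 CPM in ventral control 2, and the summed level of the 9 class I genes was 1036 CPM in dorsal knockdown 3 and 485 CPM in ventral control 2. In ventral knockdown 4 and ventral control 4, the 5 class II genes other than Ciita and H2-DMa summed to 30.6 and 31.6 CPM, above ventral control 2 at 21.4 CPM, with class I sums of 193 and 195 CPM.

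**Figure D5:**
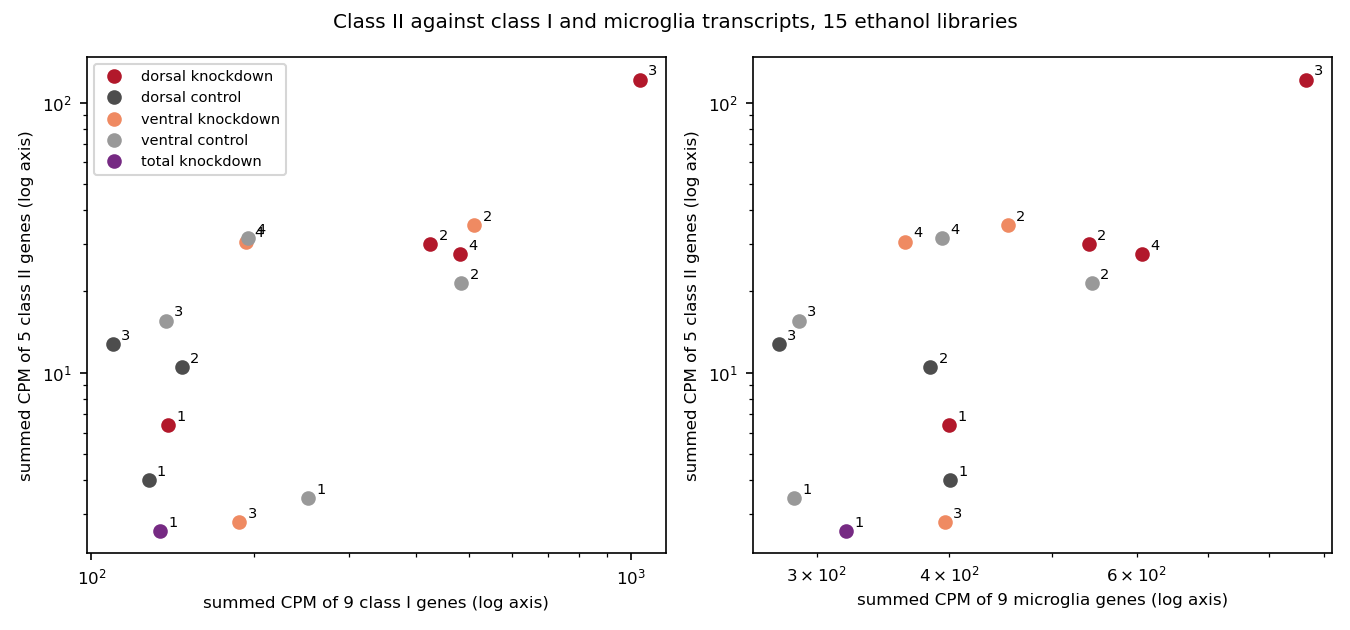
Summed CPM of Cd74, H2-Aa, H2-Ab1, H2-Eb1 and H2-DMb1 against summed CPM of 9 class I genes (left) and of 9 microglia genes (right), both axes log, in the 15 libraries; numbers are replicates. Dorsal knockdown 3 lies at the top right at 122 CPM of class II, and libraries with class I sums near 190 CPM range from 2.79 to 31.6 CPM of class II.

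Markers of the cells that could carry class II were set beside these values. All 9 microglia genes were above 0 in dorsal knockdown (53.3% of all tested genes), with a median of 0.58. Against 3.39% of all tested genes, 4 of the 9 were higher at an unadjusted p under 0.05, led by C1qa (1.63, SE 0.51), a complement gene. The summed level of the 9 was 400 to 866 CPM in dorsal knockdown, against 277 to 401 CPM in dorsal control. It was 364 to 454 CPM in ventral knockdown, against 286 to 544 CPM in ventral control. Without dorsal knockdown 3 the median was 0.47 with 2 of 9 higher at p under 0.05, against 1.54% of all tested genes. Markers of macrophages of the brain's borders had 1 of 6 tested genes above 0 (median -0.48) and sums of 22.7 to 35.6 CPM in dorsal knockdown, against 32.5 to 37.7 CPM in dorsal control.

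Dendritic cell markers had 2 of 4 tested genes above 0 (53.3% of all tested genes). They were Itgax, the integrin CD11c (4.62, SE 1.36, against dorsal controls at 0, 0 and 0.280 CPM), and the transcription factor Batf3 (1.70, SE 0.56). Dorsal knockdown gave 126 of the 168 Itgax reads, so Itgax passed the filter mainly on reads from the group where it was high. The other tested markers averaged less in dorsal knockdown than in dorsal control, Flt3 at 6.26 against 8.87 CPM and Zbtb46 at 5.11 against 5.28 CPM. Sums of all 8 dendritic cell markers, Flt3 and Zbtb46 included, were 12.7 to 18.9 CPM in dorsal knockdown, against 13.8 to 16 CPM in dorsal control. Xcr1, which defines a dendritic subset, was at 0 in both. Itgax was highest in dorsal knockdown 4, at 7.08 CPM. Monocyte and neutrophil sums were 0.71 to 10.1 CPM in dorsal knockdown, against 0.210 to 0.571 CPM in dorsal control, with Ly6c2 at 4.36 CPM in dorsal knockdown 3 and at 0 reads in 8 libraries.

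B and plasma cell sums were 1.85 to 9.81 CPM in dorsal knockdown, against 0 to 0.980 CPM in dorsal control, where Ms4a1 and Pax5 were at 0. Jchain, the antibody joining chain, supplied most of it (log2 fold change 4.01, SE 0.77, edgeR adjusted p = 0.955). It was the 1 of 7 that passed the filter. Dorsal knockdown gave 198 of its 268 reads, so it passed mainly on reads from the group where it was high. T and NK cell sums were 1.42 to 13 CPM in dorsal knockdown, against 2.38 to 3.43 CPM in dorsal control, where Cd3e, Cd3d, Cd3g, Cd8a and Nkg7 were at 0. Lck, the 1 of these 7 genes that passed the filter, averaged 1.99 CPM in dorsal knockdown and 2.29 CPM in dorsal control (log2 fold change -0.20). Dorsal knockdown 3 held 3.49 CPM of Cd8a, the highest of the 15. The monocyte, B cell and T cell sums and the microglia sum were each highest in dorsal knockdown 3, the library with the most class II RNA. The B cell sum was nearly as high in dorsal knockdown 4, at 9.75 against 9.81 CPM. The border macrophage sum was highest in ventral knockdown 4, at 58.4 CPM. The dendritic cell sum was highest in ventral control 3, at 21.4 CPM, against 17.2 CPM in dorsal knockdown 3. The part of these cell types in the class II levels was not tested.

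Reactive astrocyte genes were above 0 in all 6 cases in dorsal knockdown (median 2.50, 53.3% of all tested genes above 0). Of the 6, 5 were higher at an unadjusted p under 0.05, among them Vim (2.41, SE 0.73), against 3.39% of all tested genes. Their sums were 894 to 4757 CPM in dorsal knockdown, against 391 to 639 CPM in dorsal control. Without dorsal knockdown 3 only 5 of the 6 passed the filter. Their median was 1.27 with 3 of 5 higher at p under 0.05, against 1.54% of all tested genes. Steap4 had 10 reads or more in 3 of the 15 libraries, with 4.47 CPM in dorsal knockdown 3 and 4.83 CPM in ventral control 4. Its passing in the full fit therefore leaned on libraries where it was high. Choroid plexus and meningeal genes gave 0 of 6 and 0 of 5 genes at p under 0.05 with knockdown higher in dorsal tissue, and neuron genes 0 of 6 (median 0.04). Ventral control 4 held 15310 CPM of choroid plexus genes, and it was also the ventral control with the most Cd74, H2-Aa, H2-Eb1 and H2-DMb1, while its choroid sum was far above the 34.1 CPM at the low end of that group. All 6 choroid genes were at an unadjusted p under 0.05 with lower levels in ventral knockdown than in ventral control (median -5.38, 2.46% of all tested genes), led by Ttr (-7.03, SE 2.01, edgeR adjusted p = 0.718). All 6 were likewise lower in dorsal than in ventral control (median -3.32, 2.99% of all tested genes), the comparison in which H2-DMb1 was also lower. Of the 6, 4 had a positive difference of knockdown effects at an unadjusted p under 0.05 (2.79% of all tested genes). The H2-DMb1 difference was 2.54 without ventral control 4. Whether choroid tissue supplied class II RNA in ventral control 4 was not tested.

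By the likeness rule, the 8 genes outside the set whose log2 CPM followed the mean of the 6 tested members most closely, of 13401 candidates, were Tmem106a (Pearson r 0.91), Tmem176a (0.91), Plscr2 (0.91), Serping1 (0.90), Anxa2 (0.90), Ifi30 (0.89), Fcgr2b (0.89) and Olfml3 (0.89, n = 15). All 8 were highest in dorsal knockdown 3. Without that library r was 0.83 to 0.89. Serping1, the C1 inhibitor, ran from 2.14 to 47.2 CPM, and Fcgr2b, the inhibitory Fc receptor, from 0.677 to 20.3 CPM.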

How the data were processed

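Hippocampal RNA was sequenced with a directional kit, per the labels' protocols, in 21 libraries. The deposited file is 1 table of unnormalised read counts by the authors, with 24498 gene rows; its 5 HTSeq summary lines entered neither the library sizes nor any test. Per the submitters' processing notes, STAR 2.5.2a, HTSeq 0.6.1p1 and mm10 were used; whether counting used strand is not stated in the sources used here. All 21 sample columns were identified and 0 were left unused.

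Groups came from the sample titles. The 4 untreated libraries (4279 to 221847 gene reads, 0.991% to 1.43% of uniquely aligned reads in genes) and 2 ethanol libraries, dorsal knockdown 5 (5021 gene reads) and ventral knockdown 1 (8744), entered no main test for lack of depth; the 2 ethanol ones had 0 reads of all 7 members. The untreated libraries were first published earlier, per the series text. edgeR 4.0.16 in R 4.3.3 fitted 4 group means to 14 libraries (filterByExpr with a minimum count of 10, TMM, robust quasi-likelihood), with calls at an adjusted p under 0.05. Standard errors came from the F statistic, and log2 CPM used a prior count of 1. Ciita was tested by exact permutation with scipy 1.17.1 in Python 3.11.15. The fit was tested on simulated counts.

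The members and lists were chosen with earlier results of these data known. Named genes were the 7 members, Acss2, from each list the genes called or otherwise the 2 with the smallest p in the dorsal comparison (1 for cell types), and the 8 genes most like the members among those averaging 1 CPM or more; other list genes were named after their values were seen. Alternatives were RLE scaling, CPM without scaling factors, no low-count filter, only the groups compared, all 20 dorsal and ventral libraries, a replicate block, DESeq2 1.42.0 and leaving out each library. Annotation was GENCODE M21. The values of 1 list gene are not reported here.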

Additional observations from a re-analysis of the deposited data

Results flagged for a closer look

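In groups of 4, 48 gene levels and list sums were examined, and in 7 a single library stood apart by a wide gap. For normally distributed values chance gives such a gap in about 1 of 20 groups. The values were CPM without logs, so this rate need not hold here. Ciita was at 3.05 CPM in dorsal knockdown 3, against 0.142 to 0.267 CPM in the other dorsal knockdown libraries. The 5 other class II genes that were highest there did not pass, with a gap of 0.72 to 0.79 of the range. In the same library the interferon gamma signalling genes summed to 628 CPM and the reactive astrocyte genes to 4757 CPM. Meningeal fibroblast genes summed to 244 CPM in dorsal knockdown 2 and to 336 CPM in ventral control 1. Monocyte and neutrophil genes summed to 5.10 CPM in ventral control 2, and choroid plexus genes to 15310 CPM in ventral control 4.

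The knockdown effect of H2-DMb1 in dorsal and ventral tissue was 3.03 apart on the log2 scale with dorsal higher, which passed a test of the difference before adjustment (unadjusted p under 0.05) but not after it (edgeR adjusted p = 0.998). For Ciita the knockdown effects on mean CPM had opposite signs and differed by 0.959 CPM, dorsal minus ventral. That difference was not tested.

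Reads of Ciita also appeared in libraries outside the comparisons, with 21 in untreated knockdown 1, 25 in untreated control 1 and 23 in untreated control 2, above the limit that 0 reads allow. Untreated knockdown 2 had 0, and the other 6 genes had 0 or 1 read in each of the 4. Dexi, the opposite-strand gene, had 0, 0, 0 and 3 reads there. Whether these are transcripts of Ciita was not tested.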

How the results depend on the processing

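Of 174 fold changes of members and alternatives other than leaving out libraries, 1 changed sign, H2-DMa in dorsal over ventral control with the replicate number as a block (-0.0622). No member reached an adjusted p under 0.05 (smallest 0.468). Deviations of same-numbered libraries had correlations of -0.22 to 0.37, and the highest with another number were 0.03 to 0.37. Between dorsal and ventral knockdown, replicate 4 had 0.37, against 0.12 with another number, and replicate 2 had -0.14, against 0.37. These values do not settle whether equal numbers mark shared animals, and the replicate block pairs numbers only. Under it edgeR called 0 genes in each comparison, as without it, and 2 of 6 members in dorsal knockdown and 1 of 6 between knockdown regions were at an unadjusted p under 0.05 (5.71% and 2.89% of all tested genes in either direction), against 3 and 0 without it (4.58% and 2.17%). DESeq2 called 11 genes for knockdown in dorsal, 35 in ventral, 13 between control regions and 9 for the difference of effects. With all 20 libraries 1 gene was called in ventral and 1 for the difference. DESeq2 gave 5 of 6 members at an unadjusted p under 0.05 in dorsal tissue (5.23% of all tested genes in either direction), and edgeR 3.

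Leaving out single libraries, of 252 member values 16 changed sign and the smallest adjusted p was 0.50. Calls ran from 0 to 8 in ventral tissue and from 0 to 6 between control regions (the highest without ventral control 1), and from 0 to 2 for the difference (2 without ventral knockdown 3), and were 0 elsewhere. Ventral knockdown fold changes ran from -0.20 to 1.14 for H2-Aa, -0.36 to 0.93 for H2-Ab1, -0.85 to 0.42 for H2-Eb1, -0.27 to 0.29 for H2-DMa and -0.60 to 0.00516 for Acss2. Dorsal over ventral knockdown ran from -0.35 to 1.56 for H2-Aa, -0.40 to 1.69 for H2-Ab1 and -0.0449 to 1.91 for H2-Eb1. In controls it ran from -1.30 to 0.0183 for H2-Aa and -0.19 to 0.26 for H2-DMa, and the difference of effects of H2-DMa from -0.0562 to 0.54. Ciita differences in CPM ran from 0.114 to 1.08 for dorsal knockdown, -0.249 to 0.00579 for ventral knockdown, -0.0194 to 0.95 between knockdown regions and -0.383 to -0.128 between control regions. The cause was not tested. Leaving out dorsal knockdown 3 or ventral control 2 for the list counts was chosen after seeing the data. Depth limits Ciita most, with at most 5 reads outside dorsal knockdown 3.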
